A study of Mus musculus with 16 samples.

Results

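The difference in gene expression between left atrium (LA) and right atrium (RA), termed the side difference, was compared between Swiss Agouti (SA) and MF1 mice. All 16 arrays of the series entered the comparison, 4 of LA and 4 of RA in SA mice and 4 of LA and 4 of RA in MF1 mice, and all 25697 gene probes of the array were tested. Total RNA of single atria was hybridized to Illumina MouseRef-8 arrays, 1 array per atrium. The study looked for sided genes shared by its strains and ages, and the same arrays allow the side difference itself to be compared between strains. The labels give an age of 12 months for both strains and name no treatment or altered allele. According to the methods, the SA mice were female and the MF1 mice male, so that strain and sex cannot be told apart in any difference below. The strains were also separate array experiments, each normalized on its own, so that experiment and normalization cannot be told apart from strain either. The methods also give a younger age for SA mice in one place, which was not resolved, so that age may differ too. Arrays of one group are labelled as replicates, and p-values measure the spread between these arrays.

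For each probe, the side difference is the mean log2 value of LA minus that of RA within a strain, so that positive values lie towards LA and negative values towards RA. The strain difference is the side difference of SA minus that of MF1. A constant offset in the log2 level of a gene in a strain cancels in it, and levels were not compared between strains. A difference of scale between the separately normalized datasets would not cancel. The deposited values are centred on the median of each probe, and therefore give neither a level nor a background. For this reason atrial identity could not be checked by the level of marker genes, and differences of probes near background may be understated. For such probes the strain difference can still depend on the level in each strain. Values of single arrays are given below on the log2 scale relative to the mean of the 4 RA arrays of the same strain, so that RA arrays scatter around 0. Overlap of LA arrays between the strains is described for single probes only, and the spread of the RA arrays does not enter it. Many of these probes were picked for a low p of the strain difference, which favours a lack of overlap. The share of all probes without overlap was not counted. Strain differences were tested with limma on all 16 arrays with Benjamini-Hochberg adjustment over all probes. Probes with a strain difference of more than 1.5-fold whose adjusted p was below 0.05 are said to have passed. The same thresholds were used for the side difference within each strain.

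The atria acquire different identities when the left-right axis of the embryo is laid down. In the adult, the RA receives the systemic veins and contains the sinus node, whereas the LA receives the pulmonary veins. Besides muscle, both chambers contain endocardium, epicardium, vessels, nerves, fibroblasts and resident immune cells, and a sided transcript can come from any of them.

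Few probes passed for a difference between the strains. For the strain difference, 2 of 25697 probes passed (0.00778%), both with a positive value: a probe of Mgmt, a DNA repair enzyme that removes alkyl groups from guanine, and a probe of Cd207, which codes for langerin, a lectin of Langerhans cells and other dendritic cells. No probe passed with a negative value. At an unadjusted p under 0.05 there were 1895 probes (7.37%), 981 positive (3.82%) and 914 negative (3.56%). The 95% interval of the strain difference had a median half-width of 1.14-fold, and for 22684 probes (88.3%) it lay wholly within 1.5-fold in either direction. Most of these probes had no side difference that passed in either strain, and among the 290 that did, the interval lay within 1.5-fold for 51 (17.6%). It lay wholly beyond 1.5-fold for 9 probes. A strain difference of more than 1.5-fold in the estimate was seen for 235 probes (0.915%), 77 of them positive and 80 negative at an unadjusted p under 0.05. Only 1 probe, which the annotation does not name, lay on opposite sides with more than 1.5-fold in each strain (adjusted p = 0.561 from limma). The count of 2 was not stable: it became 0 with the replicate number as a fixed block, remained 2 with the number as a random block, with the same probes (adjusted p = 0.00921 for Mgmt and 0.0167 for Cd207 from limma), and became 9 without MF1 LA replicate 2, an array whose deviations from its group mean had a SD of 0.226 over all probes, against 0.0951 to 0.154 in the other 15 arrays.

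Genes that were sided in both strains tended to have the wider side difference in MF1. Within the strains, 162 probes passed in SA (0.63%) and 203 in MF1 (0.79%), or 165 in SA and 292 in MF1 with the replicate number as a block. Of the 75 probes that passed in both, 58 (77.3%) had the larger side difference in MF1, 23 of the 31 on the LA side and 35 of the 44 on the RA side. Over all probes, 13789 of 25697 (53.7%) were wider in MF1. The median size of the side difference over the 75 probes was 1.10 in SA and 1.36 in MF1 on the log2 scale. For the strain difference, 22 of the 75 had an unadjusted p under 0.05, and the 95% interval lay within 1.5-fold for 18 (24%) and within 2-fold for 51. Over all probes, the side differences had a SD of 0.157 in SA and 0.191 in MF1. This order depended on the scaling of the arrays. When each array was scaled to one median absolute value, 47 of the 75 (62.7%) were wider in MF1. When all 16 arrays were quantile normalized together, 38 of the 75 (50.7%) were. Both settings were chosen after seeing the data and act on the median-centred values, not on signals. They even out the spread of these values across arrays. For this reason they cannot tell a difference of scale between the datasets from a wider side difference. Without any one array the share ranged from 72% to 80%. Among genes the study lists as sided in all its datasets, 58 of the 80 probes that passed in either strain (72.5%) were wider in MF1. The study chose them on these arrays, so they are not independent of the others.

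**Figure D1:**
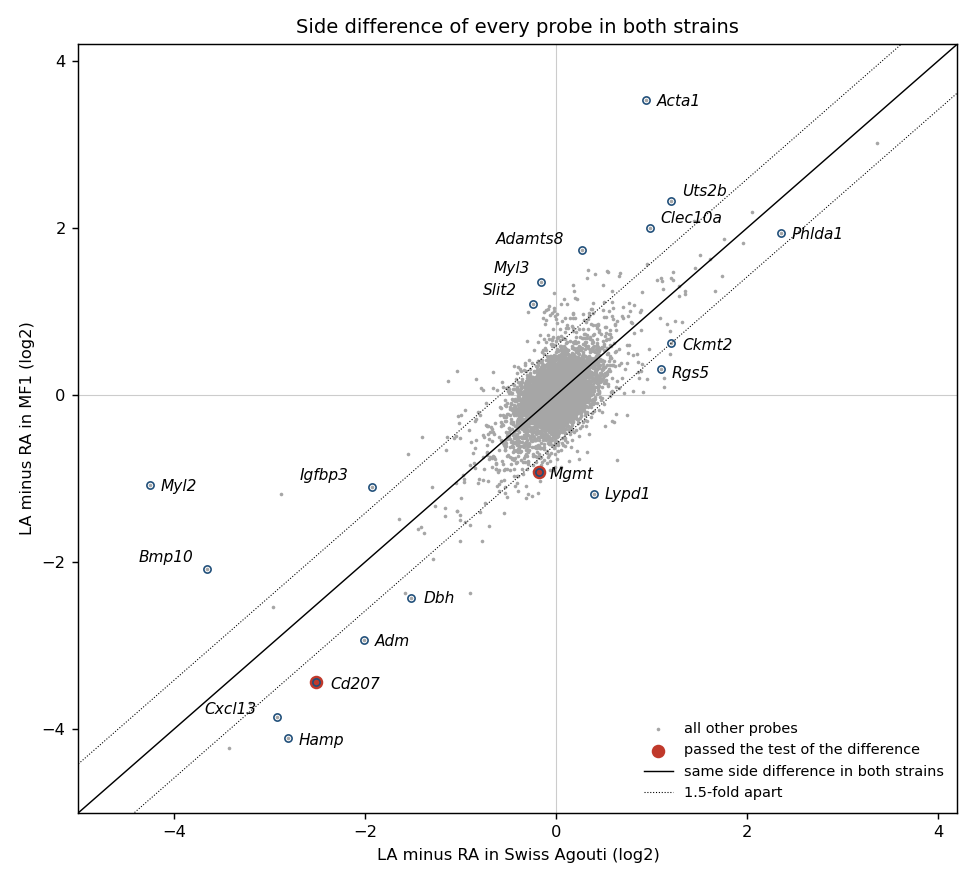
Side difference (LA minus RA, log2) of every probe in SA (horizontal axis) and MF1 (vertical axis). Each point is 1 probe, the solid line marks equal side differences and the dotted lines a strain difference of 1.5-fold. The 2 probes that passed for the strain difference are filled red, labelled genes are circled, and most probes lie between the dotted lines.

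Mgmt was sided in MF1 and nearly even in SA. In LA it had values of -0.15, -0.12, -0.17 and -0.28 in SA, against -0.09 to 0.10 in the SA RA arrays. In the MF1 LA arrays it had -1.01, -0.94, -0.98 and -0.76, against -0.11 to 0.11 in the MF1 RA arrays. All 4 MF1 LA arrays lay below all 4 SA LA arrays. The side difference was -0.18 in SA (adjusted p = 0.189 from limma) and -0.92, or 1.89-fold towards RA, in MF1 (adjusted p = 0.000834 from limma). The strain difference was 0.74 (95% interval 0.55 to 0.94, adjusted p = 0.0175 from limma). Mgmt lies on chromosome 7 and has a single probe on this array, so that no other probe bears on this value. The estimate was 0.66 to 0.80 over 24 other settings, and it did not pass in 9 of them, where the adjusted p ranged up to 0.0904.

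Cd207 was strongly sided in both strains, and more so in MF1. Its first probe had -2.57, -2.39, -2.62 and -2.47 in SA LA, against -0.21 to 0.14 in SA RA. In MF1 LA it had -3.45, -3.50, -3.32 and -3.48, against -0.21 to 0.19 in MF1 RA. The 4 arrays of each LA group lay close together, and the LA groups of the strains did not overlap. The side difference was 5.71-fold towards RA in SA and 10.8-fold towards RA in MF1, and the strain difference was 0.92 (95% interval 0.65 to 1.20, adjusted p = 0.0333 from limma). The second probe had -3.51 to -3.29 in SA LA and -4.36 to -4.09 in MF1 LA. Its side difference was -3.42 in SA and -4.23 in MF1, and its strain difference of 0.81 did not pass (95% interval 0.52 to 1.10, adjusted p = 0.114 from limma). With all 16 arrays quantile normalized together, the strain difference was 0.50 for the first probe (adjusted p = 0.610 from limma) and -0.11 for the second. The first probe did not pass in 14 of the 24 other settings. The second did not pass in 22 of them. When the probes of a gene were averaged, 2 of 16593 genes passed (0.0121%), and Cd207 was the only one of them in the gene lists described below.

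**Figure D2:**
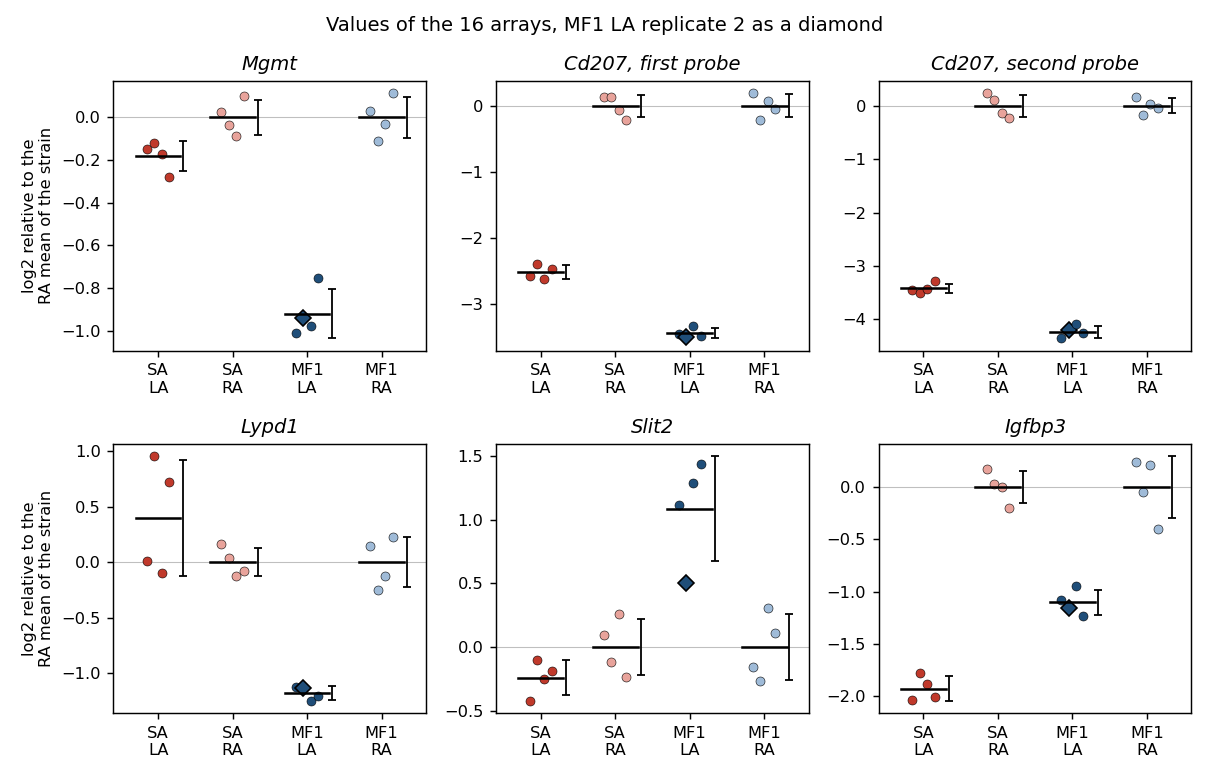
Values of the 16 arrays for Mgmt, both probes of Cd207, Lypd1, Slit2 and Igfbp3, in log2 relative to the RA mean of the strain. Points are arrays, lines are group means, bars are ± 1 SD (n = 4), and the diamond is MF1 LA replicate 2. LA arrays of the strains do not overlap in any of the 6 panels. The probes shown were picked for a low p of this contrast, and the share of all probes without overlap was not counted.

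Other probes with large strain differences did not pass. By a rule on the unadjusted p, the 10 leading probes with more than 1.5-fold were followed in each direction. Besides Mgmt and Cd207, the positive ones were those of Lypd1, Adh1, Rufy3, Vstm2b, Cadps, Hs3st1 and an unnamed probe (ILMN_2954474). The negative ones were those of 4930555G01Rik, Slit2, Dysf, Rpl36a, Igfbp3, Gm5797, Actc1, Popdc2, Pdlim5 and a second unnamed probe (ILMN_2971177). Since these probes were picked for this contrast, their values are given as a description.

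Several of them had their side differences on opposite sides of 0. Lypd1, a membrane protein that binds nicotinic acetylcholine receptors, had 0.01, 0.96, -0.10 and 0.72 in SA LA and -1.12, -1.13, -1.25 and -1.21 in MF1 LA. The SA LA arrays were spread and overlapped with SA RA (-0.12 to 0.16), whereas the MF1 LA arrays lay well below MF1 RA (-0.25 to 0.22). Its side difference was 0.40 in SA (adjusted p = 0.508 from limma) and -1.18 in MF1 (adjusted p = 0.00116 from limma), and the strain difference of 1.58 had an interval of 1.02 to 2.14 (adjusted p = 0.114 from limma). It passed in 2 of the 24 other settings, namely with a separate spread for each strain (adjusted p = 0.0409) and without SA LA replicate 3 (adjusted p = 0.0387).

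Slit2, a secreted guidance cue that acts through Robo receptors, had -0.43, -0.10, -0.25 and -0.19 in SA LA, and 1.12, 0.50, 1.29 and 1.44 in MF1 LA. The MF1 LA arrays were thus all above both MF1 RA (-0.26 to 0.31) and SA LA, with replicate 2 the lowest. The strain difference was -1.33 (95% interval -1.86 to -0.80, adjusted p = 0.131 from limma). It was -1.53 without MF1 LA replicate 2, where it passed (adjusted p = 0.0103 from limma). Among 62 axon guidance genes, 1 was positive and 4 were negative at an unadjusted p under 0.05 (1.61% and 6.45%, against 4.04% and 3.63% of all 16593 genes), and the median strain difference was -0.04.

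Other genes had estimates towards LA in SA and towards RA in MF1. Vstm2b, a membrane protein of the immunoglobulin family, had 0.42 to 0.73 in SA LA and -0.50 to -0.14 in MF1 LA. Its side difference was 0.61 in SA (adjusted p = 0.00171 from limma) and -0.32 in MF1 (adjusted p = 0.498 from limma). Hs3st1, which sulfates heparan chains, had 0.26 to 0.91 in SA LA and -0.54 to -0.03 in MF1 LA. Its strain difference was 0.90 (95% interval 0.52 to 1.28, adjusted p = 0.175 from limma), and it passed without MF1 LA replicate 2 (1.00, adjusted p = 0.0489 from limma). Relative to the RA mean, both genes lay towards LA in each of the 4 SA LA arrays and towards RA in each of the 4 MF1 LA arrays. The MF1 LA arrays overlapped with MF1 RA, which had -0.35 to 0.42 for Vstm2b and -0.16 to 0.13 for Hs3st1. The side difference in MF1 passed for neither gene (adjusted p = 0.322 for Hs3st1 from limma). The same held for the second probe of Rufy3, a regulator of neuronal polarity, with 0.21 to 0.49 in SA LA and -0.67 to -0.31 in MF1 LA (strain difference 0.81, adjusted p = 0.131 from limma). Here too the MF1 LA arrays overlapped with MF1 RA (-0.35 to 0.16). The other probes of Rufy3 had 0.52 and 0.63.

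Adamts19, a secreted metalloproteinase, had 0.48 to 0.77 in SA LA and -0.58 to -0.06 in MF1 LA. Its side difference was 0.62 in SA (adjusted p = 0.0247 from limma) and -0.23 in MF1 (adjusted p = 0.678 from limma). In the other direction, 4930555G01Rik had -0.77 to -0.56 in SA LA and 0.11 to 0.63 in MF1 LA. Its strain difference of -0.93 (adjusted p = 0.114 from limma) passed in 3 of the 24 other settings: with a separate spread for each strain (adjusted p = 0.0374), after joint quantile normalization (adjusted p = 0.0343) and without MF1 LA replicate 2 (adjusted p = 0.0241). One probe of Gm5797 had -1.35 to -0.61 in SA LA and -0.08 to 0.76 in MF1 LA, while its second probe showed no side difference in either strain (0.01 in SA and 0.00 in MF1). Whether these predicted genes share reads with similar copies cannot be told from the array.

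Further genes had the larger side difference in MF1. Cadps, a factor of vesicle release, had -0.06 in SA and -0.80 in MF1. Its LA arrays had -0.18 to 0.13 in SA and -0.96 to -0.66 in MF1, without overlap. Adh1, an alcohol and retinol dehydrogenase, had -0.63 to -0.25 in SA LA and -1.16 to -0.98 in MF1 LA at the probe picked, with side differences of -0.43 in SA and -1.09 in MF1. At its other probe they were -0.17 in SA and -0.76 in MF1. Dysf, a membrane repair protein of muscle, had -0.19 to 0.42 in SA LA and 0.70 to 1.06 in MF1 LA at probe ILMN_3134844, with a strain difference of -0.77 (adjusted p = 0.175 from limma). Its other probes had -0.41, or -0.22 without MF1 LA replicate 2 and -0.25 with joint quantile normalization, and -0.05.

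The unnamed probe ILMN_2971177 had 0.19, 0.46, 0.34 and 0.32 in SA LA, and 1.68, 0.64, 1.62 and 1.68 in MF1 LA. MF1 LA replicate 2 stood apart from the other 3 MF1 LA arrays. The strain difference was -1.08 (adjusted p = 0.209 from limma) and became -1.33 without this array (adjusted p = 1.5e-06 from limma), the lowest adjusted p among the probes that passed in any setting tried.

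The genes with the largest side difference towards RA included several peptides and enzymes that the study names. Adm codes for adrenomedullin, a vasodilator peptide, and Dbh for dopamine beta-hydroxylase, which makes noradrenaline. Adm had -1.94, -2.10, -1.99 and -1.99 in SA LA and -2.79, -2.91, -3.02 and -3.03 in MF1 LA. The LA arrays differed by less than 0.3 within each strain, whereas the RA arrays ranged from -0.42 to 0.35 in SA and from -0.34 to 0.26 in MF1. The strain difference of Adm was 0.93 (95% interval 0.48 to 1.38, adjusted p = 0.214 from limma). Dbh had -1.55, -1.83, -1.32 and -1.35 in SA LA and -2.53, -2.53, -2.21 and -2.45 in MF1 LA, with a strain difference of 0.92 (95% interval 0.45 to 1.38, adjusted p = 0.247 from limma). For both genes all MF1 LA arrays lay below all SA LA arrays. With joint quantile normalization the strain difference was 0.66 for Adm and 0.50 for Dbh.

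Cxcl13, the chemokine that attracts B cells, had a side difference of -2.92 in SA and -3.86 in MF1. Its values were -3.07 to -2.77 in SA LA and -4.49 to -3.51 in MF1 LA, and the strain difference was 0.93 (95% interval 0.40 to 1.47, adjusted p = 0.319 from limma). This value was 0.23 with joint quantile normalization. Hamp, which codes for the iron hormone hepcidin, had -3.0, -2.56, -2.95 and -2.72 in SA LA, against -5.65, -2.94, -3.50 and -4.31 in MF1 LA. The MF1 arrays were far more spread, and MF1 LA replicate 2 overlapped with SA LA. Its strain difference of 1.29 had an interval of 0.13 to 2.46 (adjusted p = 0.630 from limma) and was 0.78 without MF1 LA replicate 1 and 0.80 with joint quantile normalization. The paralogue Hamp2 had -3.20 in SA and -3.69 in MF1 (strain difference 0.49, 95% interval -0.23 to 1.20), or 0.17 without MF1 RA replicate 1, 0.11 with scaled arrays and 0.07 with joint quantile normalization. The sequences of both hepcidin genes are close, and the array may not tell them apart.

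Bmp10, a ligand of the BMP family made by atrial muscle, had the larger side difference in SA. It had -3.70, -3.60, -3.59 and -3.72 in SA LA and -2.10, -2.11, -2.05 and -2.07 in MF1 LA. Each LA group was tight and the strains were well apart, whereas the RA arrays ranged from -0.86 to 0.95 in SA and from -0.30 to 0.47 in MF1. The strain difference was -1.57 (95% interval -2.47 to -0.66, adjusted p = 0.319 from limma). It kept its direction in all 24 other settings, from -1.94 to -1.25, and did not pass in any. Among 26 BMP and TGF-beta ligands and receptors, 1 was positive and 3 were negative at an unadjusted p under 0.05 (3.85% and 11.5%, against 4.04% and 3.63% of all genes). Tgfb2 was one of them, with -0.14 to 0.15 in SA LA and 0.29 to 0.83 in MF1 LA (strain difference -0.48, adjusted p = 0.397 from limma). Of 18 targets of the pathway, 3 were positive and 1 was negative at an unadjusted p under 0.05. These were 16.7% and 5.56%, against 4.04% and 3.63% of all genes. Id2, an inhibitor of helix-loop-helix factors, was picked from them for a low p. It had side differences of -0.36 in SA and -0.89 in MF1 at its second probe (strain difference 0.52, adjusted p = 0.240 from limma). Without MF1 LA replicate 2 this probe passed (0.62, adjusted p = 0.0444 from limma). The strain difference was 0.03 for Id1 and 0.13 for Id3. For Ccn2, a target described below with the matrix genes, it was -1.16.

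Insulin-like growth factor binding proteins, which carry and modulate these growth factors, differed in opposite directions. Igfbp3 had -2.04, -1.78, -1.89 and -2.01 in SA LA, and -1.08, -1.15, -0.95 and -1.23 in MF1 LA. The LA arrays did not overlap, and the side difference was the larger in SA: -1.93 against -1.10 in MF1 (strain difference -0.82, 95% interval -1.19 to -0.46, adjusted p = 0.175 from limma). For Igfbp5 it was the larger in MF1, with -0.67 to -0.42 in SA LA and -1.79 to -1.11 in MF1 LA (strain difference 0.87, 95% interval 0.45 to 1.29, adjusted p = 0.214 from limma). Igfbp6 was even in SA, with -0.31 to 0.19, and lay towards RA in MF1, with -1.07 to -0.57 (strain difference 0.85, adjusted p = 0.367 from limma). Of 15 genes of this axis, 2 were positive and 2 negative at an unadjusted p under 0.05 (13.3% each, against 4.04% and 3.63% of all genes), and the median was 0.01.

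Further genes enriched in RA were wider in MF1. The strain difference was 0.97 for one probe of Ahsg, the secreted glycoprotein fetuin-A, and 0.50 for the other. It was 0.78 for Ptgds, a prostaglandin D synthase, and 0.68 for Tmem108, a membrane protein (adjusted p = 0.319 to 0.764 from limma). With joint quantile normalization these values were 0.71 and 0.15 for Ahsg, 0.33 for Ptgds and 0.33 for Tmem108. Vsig4, a complement receptor of resident macrophages, went the other way by -0.42 (95% interval -0.82 to -0.03), or -0.71 with scaled arrays and -0.99 with joint quantile normalization. For Fxyd3, a regulator of the sodium pump, the side differences were close, -1.65 in SA and -1.48 in MF1, and the interval of the strain difference was -0.63 to 0.30.

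**Figure D3:**
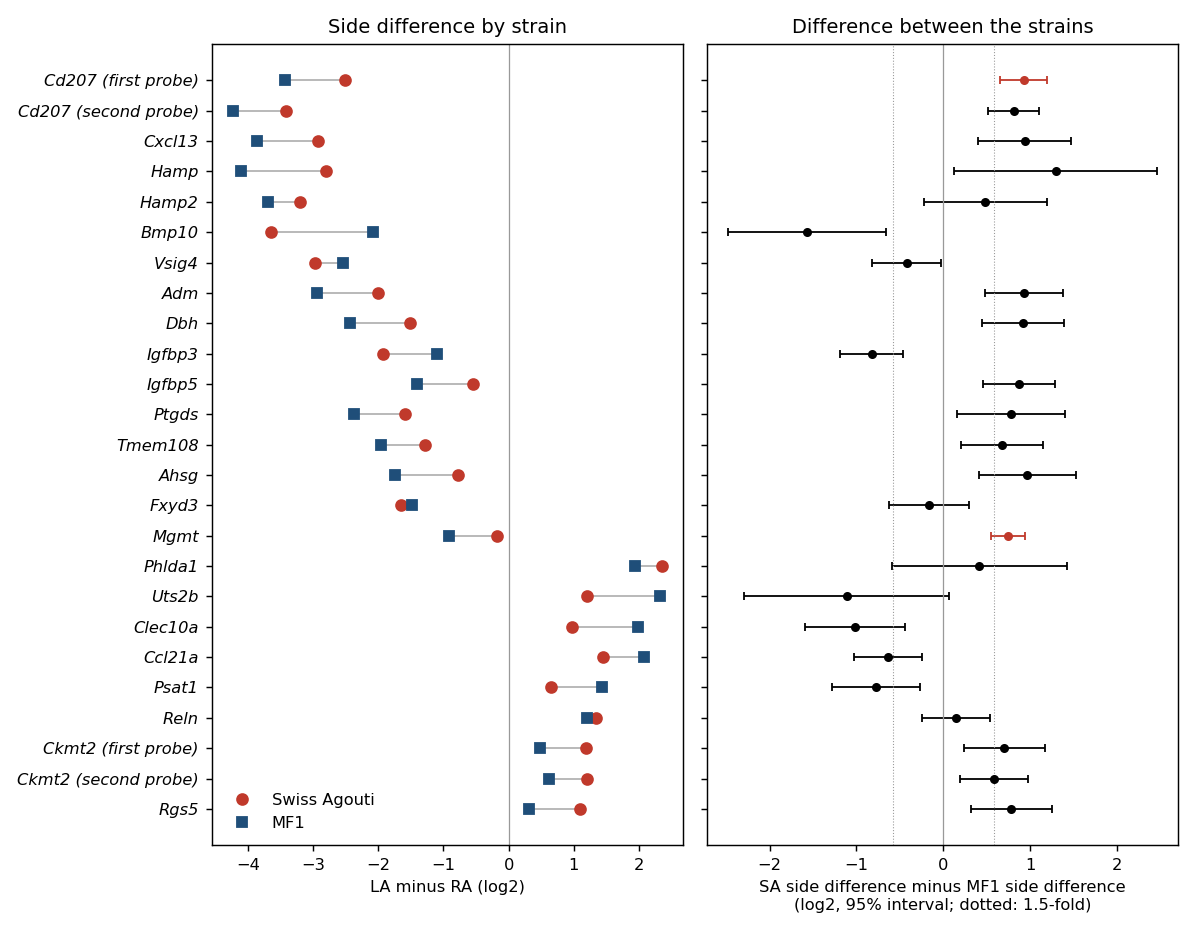
Side difference in SA (circles) and MF1 (squares) on the left, and strain difference with its 95% interval on the right, in log2, for sided genes. Dotted lines mark 1.5-fold, the probes that passed are red, and the interval of Mgmt is among the narrowest while that of Hamp spans 0.13 to 2.46.

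On the LA side, Clec10a, a lectin of macrophages, had 0.68, 0.89, 1.14 and 1.20 in SA LA and 1.62, 1.82, 2.18 and 2.35 in MF1 LA. The LA arrays did not overlap, and the strain difference was -1.01 (95% interval -1.59 to -0.44, adjusted p = 0.316 from limma). Ccl21a, a chemokine of lymphatic vessels that attracts T cells and dendritic cells, had a side difference of 1.44 in SA and 2.08 in MF1. Its strain difference was -0.63 (95% interval -1.03 to -0.24, adjusted p = 0.377 from limma), and -0.11 with joint quantile normalization. The copies of Ccl21 in the mouse genome are nearly identical, so this value may combine several of them.

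Psat1, an enzyme of serine synthesis, had 0.47 to 0.84 in SA LA and 0.72, 1.78, 1.57 and 1.63 in MF1 LA. MF1 LA replicate 1 was the lowest of its group and overlapped with SA. Without it, the strain difference of -0.77 (adjusted p = 0.427 from limma) became -1.01 and passed (adjusted p = 0.0247 from limma). It did not pass in the other 23 settings, and was -0.34 with joint quantile normalization (adjusted p = 0.818 from limma). Uts2b, a vasoactive peptide of the urotensin family, had 1.20 in SA and 2.32 in MF1 (strain difference -1.11, 95% interval -2.30 to 0.07), or -0.73 without MF1 LA replicate 2 and -0.64 with joint quantile normalization. Reln and Phlda1 did not show a wider difference in MF1. Reln, the secreted glycoprotein reelin, had 1.35 in SA and 1.20 in MF1, with an interval of -0.25 to 0.53 for the strain difference. Phlda1, a pleckstrin homology-like domain protein, had 2.35 in SA and 1.93 in MF1, with an estimate of 0.42 and an interval of -0.59 to 1.42. This estimate was 0.14 to 0.65 without one of the MF1 LA arrays and 0.21 without SA LA replicate 3, and it was 0.67 with scaled arrays and 1.23 with joint quantile normalization.

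Ckmt2, the mitochondrial creatine kinase of muscle, was sided mainly in SA. Its first probe had 1.44, 1.22, 1.14 and 0.97 in SA LA and 0.72, 0.36, 0.52 and 0.36 in MF1 LA. The second probe had 1.16 to 1.26 in SA LA and 0.37 to 0.86 in MF1 LA. In both probes the LA arrays of the strains were apart, with strain differences of 0.70 (95% interval 0.24 to 1.17) and 0.58 (95% interval 0.19 to 0.98). Neither passed (adjusted p = 0.428 and 0.444 from limma).

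Rgs5, a regulator of G-protein signalling that marks pericytes, had 0.89 to 1.33 in SA LA and 0.23 to 0.46 in MF1 LA. Its RA arrays ranged from -0.47 to 0.44 in SA, and the strain difference was 0.78 (95% interval 0.32 to 1.25, adjusted p = 0.342 from limma). Mylk, the kinase of smooth muscle myosin, had 0.38 to 1.73 in SA LA and 0.10 to 0.35 in MF1 LA at its second probe (strain difference 0.75, adjusted p = 0.538 from limma, and 0.49 without SA LA replicate 3). Its first probe had 0.52, and 0.27 without that array. Of 17 markers of smooth muscle and pericytes, 3 were positive and 2 negative at an unadjusted p under 0.05 (17.6% and 11.8%, against 4.04% and 3.63% of all genes), with a median of 0.05.

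Genes of the contractile apparatus tended to have negative strain differences. Of 30 sarcomere genes, none was positive and 6 were negative at an unadjusted p under 0.05 (20%, against 3.63% of all genes). Below 0 were 23 of the 30 (76.7%, against 49.4% of all genes). The median side difference was 0.00 in SA and 0.08 in MF1. None passed. Actc1, cardiac actin, had -0.37 to -0.06 in SA LA and 0.40 to 0.95 in MF1 LA at its second probe (strain difference -0.83, 95% interval -1.22 to -0.43), and -0.28 at its first. Of 18 skeletal muscle isoforms, none was positive and 1 was negative at an unadjusted p under 0.05 (5.56%, against 3.63% of all genes). From these, Acta1, skeletal actin, had 2.19, 0.18, 0.89 and 0.52 in SA LA and 5.26, 5.12, 2.06 and 1.68 in MF1 LA. Replicates 1 and 2 of MF1 LA were far above replicates 3 and 4, and the highest SA LA array overlapped with MF1 LA. The strain difference of -2.58 had an interval of -4.70 to -0.46 (adjusted p = 0.584 from limma). Of 22 calcium handling genes, 1 was positive and 1 negative at an unadjusted p under 0.05, with a median of -0.01. These were 4.55% each, against 4.04% and 3.63% of all genes. Casq2, the calcium-binding protein of the sarcoplasmic reticulum, was picked from this list. It was more even than Acta1, with 0.15 to 0.76 in SA LA and 0.96 to 1.19 in MF1 LA (strain difference -0.71, 95% interval -1.08 to -0.34, adjusted p = 0.249 from limma).

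Myh6, the atrial myosin heavy chain, had 0.23 to 0.37 in SA LA and -0.11 to -0.05 in MF1 LA at its second probe. The strain difference of 0.36 was small but well determined (95% interval 0.23 to 0.49, adjusted p = 0.117 from limma). Its first probe had 0.19 (95% interval -0.45 to 0.84). Myh6 belongs to the sarcomere list and went against the direction of most of it. Its probes were averaged for the counts above, and the average was not among the genes at an unadjusted p under 0.05. The LIM protein gene Pdlim5 and Popdc2, a membrane protein of cardiac muscle, had -0.93 and -0.96 at the probes picked, with all 4 MF1 LA arrays above all 4 SA LA arrays. The other 3 probes of Pdlim5 had -0.35, -0.92 and -1.04. The value of -0.35 became -0.09 without MF1 LA replicate 2 and -0.23 with joint quantile normalization, and that of -0.92 became -0.55 without SA LA replicate 4.

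Myl2 and Myl3 code for the regulatory and essential myosin light chains of the ventricle. Myl2 had -4.04, -4.39, -4.10 and -4.47 in SA LA, against -3.19, 0.74, 0.46 and 1.98 in SA RA. In MF1 it had -0.83, -1.04, -1.27 and -1.20 in LA, against -1.25, 0.91, -0.18 and 0.52 in RA. SA RA replicate 1 thus lay near the SA LA arrays and apart from the other SA RA arrays, and in MF1 the LA and RA arrays overlapped. The strain difference was -3.17 (95% interval -5.47 to -0.86, adjusted p = 0.490 from limma), and without SA RA replicate 1 it was -4.23 and passed (adjusted p = 0.0266 from limma). It was -2.51 without SA RA replicate 4 and -1.99 with joint quantile normalization, and passed in neither. Myl3 had -0.63 to 0.06 in SA LA and 0.50 to 1.90 in MF1 LA (strain difference -1.51, 95% interval -2.38 to -0.65, adjusted p = 0.319 from limma). Of the 9 ventricular markers measured, these 2 were negative at an unadjusted p under 0.05 (22.2%, against 3.63% of all genes). None was positive, against 4.04% of all genes. The median of the list ranged from -0.10 to 0.02 over the SA LA arrays and from -0.20 to 0.13 over the MF1 LA arrays. Whether ventricular tissue in some samples had a part in these values was not tested.

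**Figure D4:**
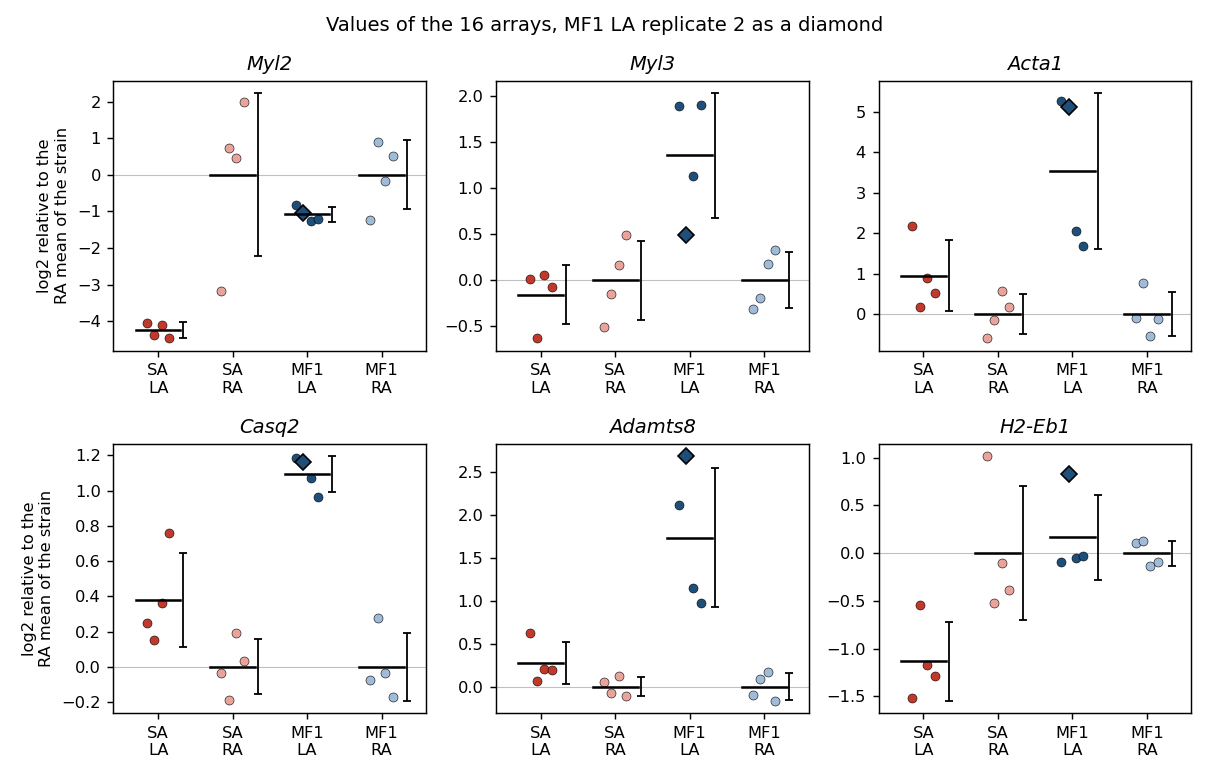
Values of the 16 arrays for Myl2, Myl3, Acta1, Casq2, Adamts8 and H2-Eb1, in log2 relative to the RA mean of the strain. Points are arrays, lines are group means, bars are ± 1 SD (n = 4), and the diamond is MF1 LA replicate 2. In Myl2 one SA RA array lies at -3.19, and in H2-Eb1 the diamond stands apart from the other MF1 LA arrays.

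MF1 LA replicate 2 also stood apart in an antigen presentation gene. H2-Eb1, a chain of MHC class II, had -1.52, -0.55, -1.18 and -1.29 in SA LA and -0.10, 0.83, -0.05 and -0.03 in MF1 LA. Its strain difference was -1.30 (95% interval -2.19 to -0.41, adjusted p = 0.456 from limma) and -1.08 without that array. For the 15 genes of dendritic cells and MHC class II, the median strain difference was -0.07, and 0.03 without it. In the 15 macrophage markers it was -0.21, and -0.06 without it. The median of these markers was 0.36 in MF1 LA replicate 2, against -0.29 to -0.20 in the other MF1 LA arrays and -0.52 to -0.19 in SA LA. In bulk tissue, fewer cells of a type and less RNA per cell cannot be told apart.

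Among matrix genes, Adamts8, a secreted metalloproteinase, had 0.07 to 0.63 in SA LA and 2.12, 2.69, 1.16 and 0.98 in MF1 LA (strain difference -1.46, 95% interval -2.29 to -0.64, adjusted p = 0.311 from limma). Col4a1 and Col4a2 code for the main chains of basement membrane collagen. In the SA LA arrays Col4a1 had 0.08 to 0.41, and Col4a2 had -0.28 to 0.39. In the MF1 LA arrays Col4a1 had 1.79, 1.74, 0.64 and 0.46, and Col4a2 had 1.78, 1.97, 0.77 and 0.48. In both genes, as in Adamts8 and Acta1, MF1 LA replicates 1 and 2 were higher than replicates 3 and 4. Ccn2, a matricellular protein induced by TGF-beta and stretch, had -0.46 to 0.73 in SA LA and 1.02 to 1.86 in MF1 LA (strain difference -1.16, adjusted p = 0.587 from limma). Of 37 collagens, 1 was positive and 5 were negative at an unadjusted p under 0.05. These were 2.7% and 13.5%, against 4.04% and 3.63% of all genes. Below 0 were 25 of the 37 (67.6%, against 49.4% of all genes), with a median of -0.03.

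Of 13 genes of sodium channels and connexins, which carry and pass on the action potential, 1 was positive and 2 were negative at an unadjusted p under 0.05. These were 7.69% and 15.4%, against 4.04% and 3.63% of all genes, and the median of the list was -0.01. Gja5, the atrial connexin 40, had -0.08 to 0.66 in SA LA and -1.23 to -0.44 in MF1 LA at its second probe (strain difference 1.01, 95% interval 0.48 to 1.54, adjusted p = 0.260 from limma). Its other probes had 0.69 and 0.12. Gjc1, connexin 45, had -0.15 to 0.09 in SA LA and 0.27 to 0.64 in MF1 LA (strain difference -0.46, 95% interval -0.71 to -0.21, adjusted p = 0.311 from limma). At these probes the LA arrays of the strains did not overlap.

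Ribosomal protein genes lay towards RA in SA and near 0 in MF1. Of 61 genes of the cytoplasmic ribosome, none was positive and 15 were negative at an unadjusted p under 0.05 (24.6%, against 3.63% of all genes), and none passed. The median side difference was -0.15 in SA and 0.02 in MF1, and the median strain difference -0.15. Rpl36a had -0.62, -0.39, -0.59 and -0.62 in SA LA and 0.11, 0.39, 0.01 and -0.11 in MF1 LA (strain difference -0.65, 95% interval -0.94 to -0.37, adjusted p = 0.175 from limma). Rpl5 had -0.45 to -0.21 in SA LA and 0.03 to 0.35 in MF1 LA, and Rps25 had -0.61 to -0.36 in SA LA and -0.17 to 0.29 in MF1 LA. The LA arrays were without overlap in all 3 genes. These were picked from the list for a low p of the strain difference, so they do not describe the whole list. The median over the list was -0.24, -0.12, -0.07 and -0.11 in the SA LA arrays, and -0.04, 0.21, -0.07 and -0.08 in the MF1 LA arrays, which overlapped. Without MF1 LA replicate 2, which was the highest, 2 genes were positive and 10 negative, and the median strain difference was -0.11. These were 3.28% and 16.4%, against 4.06% and 4.44% of all genes without that array. Probes of ribosomal proteins can also read near-identical pseudogenes.

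For genes of the respiratory chain the counts depended on the same array. Of 80 genes, 10 were positive and 2 negative at an unadjusted p under 0.05 (12.5% and 2.5%, against 4.04% and 3.63% of all genes), with a median of 0.07. Without MF1 LA replicate 2, 4 were positive and 10 negative (5% and 12.5%, against 4.06% and 4.44% of all genes), and the median was 0.00. Uqcrc2, a subunit of complex III, had 0.32 to 0.56 in SA LA and -0.04 to 0.30 in MF1 LA (strain difference 0.38, adjusted p = 0.530 from limma). Ndufs7, a subunit of complex I, had 0.10 to 0.25 in SA LA and 0.01, -0.55, -0.05 and -0.13 in MF1 LA, with a strain difference of 0.35 and, without MF1 LA replicate 2, of 0.22. Cox4i2, an isoform of complex IV induced by hypoxia, had the opposite direction, with -0.34 to -0.21 in SA LA and 0.00 to 0.25 in MF1 LA (strain difference -0.41, adjusted p = 0.240 from limma). In the 76 genes of the mitochondrial ribosome, 3 were positive and 8 negative, and the median was -0.02. These counts were 3.95% and 10.5%, against 4.04% and 3.63% of all genes, so that the positive share was close to that of all genes.

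Of 14 markers of epicardium and mesothelium, 12 had a strain difference above 0, against 8404 of all 16593 genes, with a median side difference of -0.11 in SA and -0.22 in MF1, and 2 were positive at an unadjusted p under 0.05 (14.3%, against 4.04% of all genes). None passed. Krt18, an epithelial keratin, had -0.09 to 0.17 in SA LA and -0.41 to -0.24 in MF1 LA (strain difference 0.41, 95% interval 0.21 to 0.61, adjusted p = 0.217 from limma). Upk3b, a uroplakin of the mesothelium, had -0.69 to 0.20 in SA LA and -1.33 to -1.04 in MF1 LA at its second probe (strain difference 0.89, adjusted p = 0.461 from limma), and 0.55 and 0.34 at its other probes, or 0.36 and 0.19 with joint quantile normalization, and the 0.34 was 0.21 without SA RA replicate 1. The median of the list was -0.31 to -0.05 in the SA LA arrays and -0.26 to -0.14 in the MF1 LA arrays, so that these groups overlapped.

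**Figure D5:**
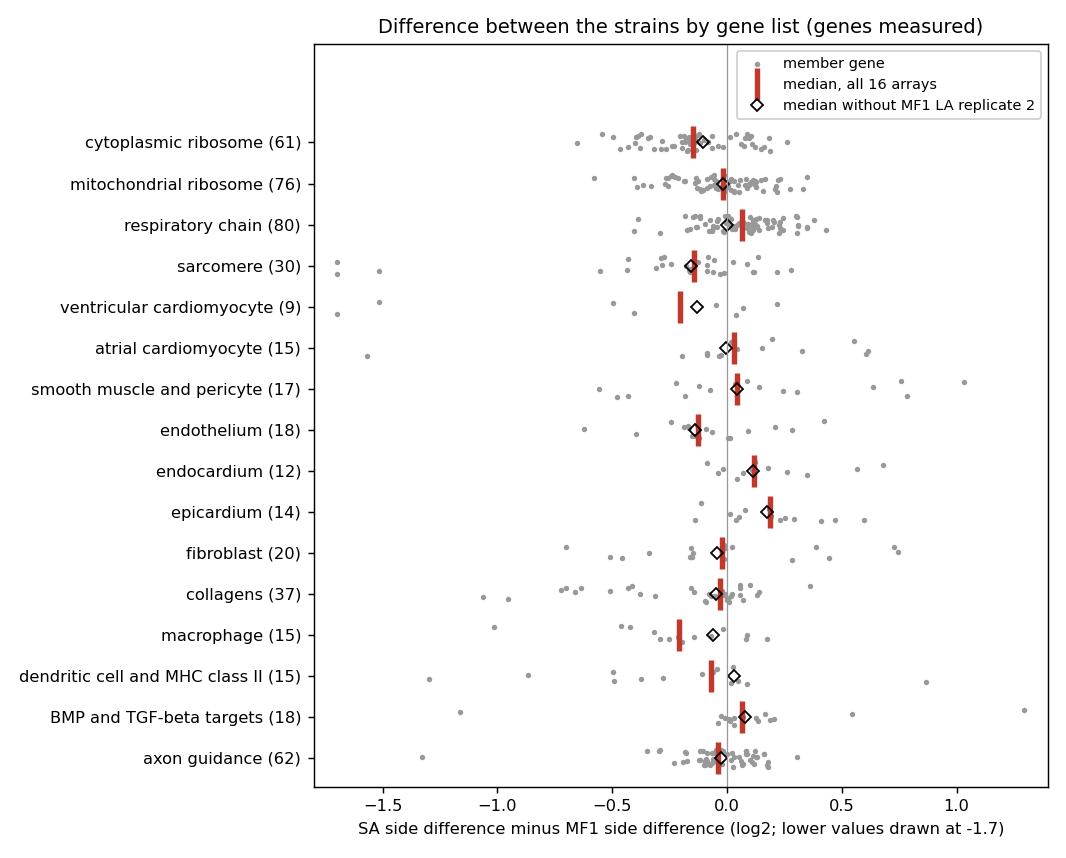
Strain difference of the measured genes of 16 lists (log2, probes of a gene averaged). Grey points are genes, with values below -1.7 drawn at -1.7, red bars the median on all 16 arrays and open diamonds the median without MF1 LA replicate 2. The medians of the cytoplasmic ribosome and sarcomere lists lie below 0 in both cases, whereas that of the respiratory chain lies at 0.07 and 0.00.

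Of the other cell type lists, none had more than 3 genes in one direction at an unadjusted p under 0.05. The shares of all genes were 4.04% positive and 3.63% negative, and some short lists lay above them. For lymphatic endothelium none was positive and 2 of 11 were negative (18.2%). For the sinus node 2 of 13 were positive and 2 negative (15.4% each). Macrophage markers had 1 of 15 positive and 2 negative (6.67% and 13.3%). Endothelium had 1 of 18 positive and 2 negative (5.56% and 11.1%). No gene reached this threshold in either direction for erythroid cells (7 genes), B cells (9), T and NK cells (14) and thymocytes (9). The same held for granulocytes (14), adipocytes (16), brown adipocytes (10) and lung airway (10). In lists this short the shares of all genes leave few genes to count, so a count of none says little. Among atrial muscle markers, 2 of 15 were positive and 1 negative (13.3% and 6.67%, against 4.04% and 3.63% of all genes), with a median of 0.03. Immediate early genes (29), the circadian clock (18) and glucocorticoid-responsive genes (16) likewise had none in either direction at this threshold. Against 4.04% and 3.63% of all genes, the same limit of short lists holds for them.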

How the data were processed

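LA and RA of 4 SA and 4 MF1 mice were hybridized to 16 Illumina MouseRef-8 arrays. Signals came from Genome Studio. The authors then normalized each dataset by quantiles in GeneSpring, centred every probe on its median and deposited the result as log2 values, used here as they stand. The 16 columns of signals before normalization were left out, because their names cannot be tied to samples. The annotation names 1 gene for 23978 probes and none for 1719.

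LA minus RA was fitted within each strain, and the strain difference on all 16 arrays as 4 groups sharing one spread (limma 3.58.1, R 4.3.3, lmFit and eBayes, no block, two-sided). Intervals are 95% intervals from limma. The number of arrays limits the precision, since no depth or background is known. Same-numbered LA and RA arrays were checked for pairing. For 56 gene lists, 24 of cell types and 32 of pathways, probes of a gene were averaged, and counts and medians are given without a test of the list. The fit was tested on simulated data.

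Genes named were the probes that passed, the 10 probes of lowest unadjusted p in each direction among those with more than 1.5-fold, genes that the study names, and up to 4 members of each list at an unadjusted p under 0.05. Other probes of these genes, Ephx2 and Micos13 were added after their values were seen. Members and lists were chosen with earlier results of these data known. The alternatives were a fixed or random replicate block, an ordinary variance, a separate spread per strain, array weights, the adjusted p alone, scaled arrays, joint quantile normalization, all probes of a gene, and leaving out each array in turn. Scaling and joint quantile normalization acted on the median-centred values and even out their spread across arrays. Their use within strains and for the size of the side difference was added after seeing the data.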

Additional observations from a re-analysis of the deposited data

Results flagged for a closer look

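The strain difference itself passed its test for 2 probes: Mgmt, with a strain difference of 0.74, and the first probe of Cd207, with 0.92.

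Single arrays far from the other 3 of their group were found in 20 of the 344 groups of 4 arrays (5.81%) over the 86 probes followed, where chance gives about 1 in 20. MF1 LA replicate 2 accounted for 7 of them. In it, Tgfb2 (0.83), H2-Eb1 (0.83), one probe of Pdlim5 (1.60), 4930555G01Rik (0.63) and the first probe of Id2 (-0.95) were higher than in the other MF1 LA arrays. The unnamed probe ILMN_2971177 (0.64, against 1.62 to 1.68) and Micos13 (-0.28, against 0.32 to 0.39) were lower. In the other LA arrays, Rpl36a was high in SA LA replicate 2 (-0.39), Uqcrc2 in MF1 LA replicate 1 (0.30) and Fxyd3 in MF1 LA replicate 4 (-1.31). Among SA RA arrays, replicate 1 was low in Dbh (-0.33) and the second probe of Ckmt2 (-0.29) and high in the unnamed probe ILMN_2954474 (0.26). Replicate 3 was high in Phlda1 (0.54), and replicate 4 was low in Uqcrc2 (-0.16) and high in Reln (0.45). Among MF1 RA arrays, replicate 2 was high in Ccl21a (0.27) and the first probe of Mylk (0.35), and replicate 3 in Tgfb2 (0.16) and the second probe of Id2 (0.16).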

How the results depend on the processing

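Under a fixed replicate block, the strain difference passed for 0 probes, and Mgmt and the first Cd207 probe had an adjusted p of 0.0525 from limma each. Under a random replicate block both passed (2 probes, adjusted p of 0.00921 and 0.0167). Same-numbered LA and RA arrays correlated at 0.23 to 0.499 in MF1 (4 of 4 LA arrays best with their own number) and at -0.112 to 0.138 in SA (1 of 4). In SA the correlations thus showed no pairing by number. A low correlation cannot tell whether same-numbered atria came from the same mouse. The block within strains gave 165 probes in SA, against 162, and 292 in MF1, against 203. Against the 2 probes reported, 0 passed with an ordinary variance, 0 with scaled arrays, 1 with joint quantile normalization (4930555G01Rik), 5 with a separate spread for each strain, 4 with array weights, and 0 to 9 without one array. The 9 without MF1 LA replicate 2 were those of Mgmt, Cd207, Slit2, Hs3st1, Id2, 4930555G01Rik, an unnamed probe, Ephx2 (-0.97) and Micos13 (-0.76). None passed without MF1 RA replicate 3 or 4, SA LA replicate 1 or 2, or SA RA replicate 3. Within strains, 117 to 289 probes passed in MF1 and 134 to 196 in SA without one array, 118 and 117 of them in MF1 without LA replicate 1 and without RA replicate 3. Of the 75 probes, 38 were wider in MF1 with joint quantile normalization, and 54 to 60 without one array. From 0 to 3 list members passed without one array, against 1 on all. The second Cd207 probe reversed to -0.11 with joint quantile normalization, and the flat Gm5797 probe ranged from -0.038 to 0.067 without one array. For named probes, 6 of 2064 alternative values reversed. A detection filter and a renewed background correction were not run, because the signals before normalization cannot be tied to samples. Without levels, how far dim probes limit the strain difference cannot be given.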
